A study of Mus musculus with 7 samples.

Results

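The Elovl genes, Elovl1 to Elovl7, encode the fatty acid elongases of the mouse, and the arrays carried 9 probes for these 7 genes out of 55681 probes and 36492 gene names. The members were all probes that were not controls and that the array's design names for one of the 7 genes. Elovl3 was the only one of the 7 whose transcript was detected in all WT livers and in no SHIVA liver.

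The livers came from 3 WT mice and 4 SHIVA mice, all C57BL/6 females 8 to 12 weeks old that had been fasted for 24 h, and each liver was hybridized to a single-colour Agilent array of its own. WT mice are the wildtype. SHIVA mice carry a Sox17 mutation, a base change induced by the mutagen ENU in the DNA-binding HMG domain of this transcription factor, and were studied as heterozygotes after repeated backcrossing to C57BL/6. All mice were fasted, so none of the values below is from a fed liver, and the mutation is in every cell of the body from conception on, not in hepatocytes alone. Because the samples are whole liver, fewer cells of a type and less RNA per cell cannot be told apart.

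Fatty acid elongation takes place at the endoplasmic reticulum as a cycle of reactions. An Elovl protein carries out the first, in which an acyl-CoA is condensed with malonyl-CoA, and this step sets which chains are lengthened. The ketoacyl reductase Hsd17b12, a dehydratase of the Hacd family and the enoyl reductase Tecr complete the cycle and are shared by all elongases. The elongases divide by substrate. Elovl1, Elovl3, Elovl6 and Elovl7 act mainly on saturated and monounsaturated chains, Elovl2 and Elovl5 on polyunsaturated chains, and Elovl4 makes the longest chains of retina, skin and brain. Elovl3 is best known from brown fat and sebaceous glands, and in mouse liver its transcript is known to vary with the time of day and to be higher in males.

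Intensities are given as log2 of the signal that the scanner software had processed, after quantile normalization over the 7 arrays. A probe was counted as detected on an array when the software marked it as well above background. The background limit of an array is the lowest normalized log2 signal among its detected probes, and it lay between 3.12 and 3.54 on the 7 arrays. Between 44.5% and 48.7% of probes were detected per array, 0 spots were saturated, and the arrays correlated at r = 0.981 or above within a genotype. The arrays shared 1 slide, WT livers in 1 row and SHIVA livers in the other, so row and genotype cannot be told apart. Sox17 itself had a dim probe, detected in 2 of 3 WT livers and 4 of 4 SHIVA livers, and did not pass the test at a log2 fold change of 0.69 (limma adjusted p = 0.280). Its level does not check the labels, since the mutation changes a residue and not the gene's presence.

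The Elovl3 probe is a 60-base oligonucleotide at chr19:46209762-46209821 of the mm9 build, on the plus strand. The files do not say which exon or untranslated region of a transcript a probe lies in. Of the 9 Elovl probes, 2 held a polyadenylation hexamer, AATAAA or ATTAAA, the signal near which transcripts are cleaved. The 30 bases around each hexamer are shown because one of them is the probe that separated the genotypes and the other belongs to a paralog that was bright in all livers. The hexamer is in capitals.
Elovl3: tggtaggcgcttAATAAAtgtcttttacag
Elovl1: acttgtgtcttaATTAAAgtgacgggaaac
Probes with either hexamer on the strand printed made up 13.7% of all probes of the array, 7621 of 55681. The longest run of bases that the Elovl3 probe shared with any other probe of the array was 16, with a probe for Slit1, and with the probes of the other Elovl genes it was 7.

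Elovl3 was lower in SHIVA livers than in WT livers, with a lower bound of 12.6-fold when group means are compared at the background limit. Its log2 signal was 7.14, 7.54 and 6.21 in the 3 WT livers. In the 4 SHIVA livers the log2 signal was 1.54, 1.43, 1.77 and 1.45. The genotypes did not overlap, WT replicate 3 was the lowest of the WT livers, and every SHIVA value lay under the background limit of its array. WT livers averaged 6.97 ± 0.68 (SD, n = 3), while the SHIVA average was 1.55 ± 0.16 (SD, n = 4). The fitted log2 fold change was -5.42 with an SE of 0.29 (limma adjusted p = 0.000607), but because Elovl3 was detected in 0 of 4 SHIVA livers this fitted value is no measured fold. The lower bound sets the WT mean of 6.97 against the mean background limit of the SHIVA arrays, 3.31, which leaves a log2 gap of 3.66. Elovl3 entered the test only through the WT livers, in which it was detected.

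Before any background correction, the mean signal of the Elovl3 spot was 142, 167 and 94.1 in the WT livers. The same spot gave 35.1, 28.6, 31.5 and 29.2 in the SHIVA livers. Each array carries 300 to 307 negative control spots, which match no transcript. The WT spots were brighter than 100% of them. The SHIVA spots were brighter than 100%, 81.1%, 99.7% and 96.0% of the negative controls of their arrays. The spots of SHIVA replicates 1, 3 and 4 thus lay above the 95th percentile of their negative controls, and that of SHIVA replicate 2 below it. The software marked the spot as positive and significant, a milder criterion than well above background, in SHIVA replicate 3 and in no other SHIVA liver. None of the 4 SHIVA spots was well above background, which leaves a bound and not a level, and does not show that the transcript was absent.

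**Figure D1:**
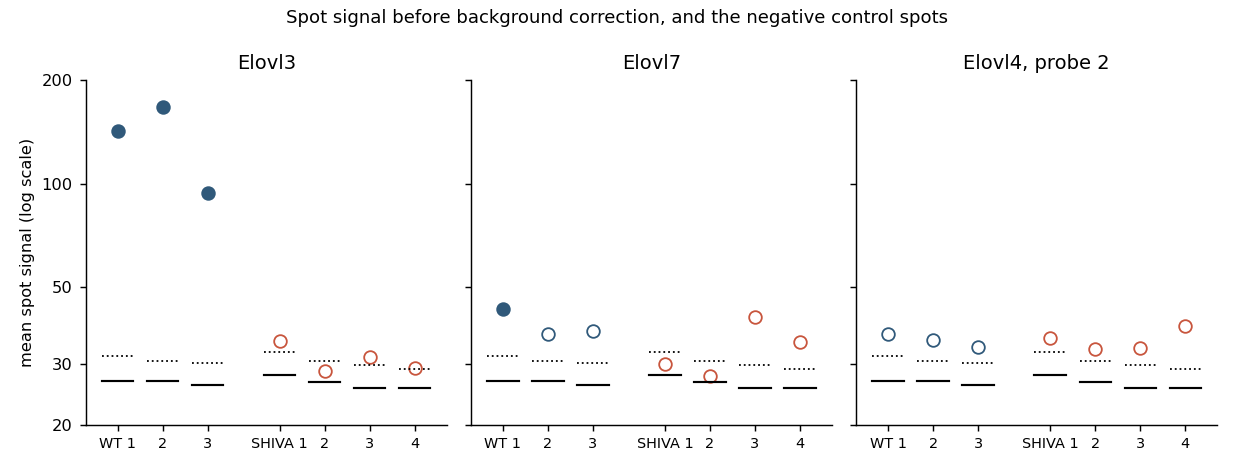
Mean spot signal before background correction (arbitrary scanner units, log scale) of the probes for Elovl3 and Elovl7 and the second probe for Elovl4 in each WT (blue) and SHIVA (red) liver. Filled circles are well above background, black bars are the median of the negative control spots of the array and dotted bars their 95th percentile. The 3 WT livers sit between 94.1 and 167 for Elovl3, and the 4 SHIVA livers between 28.6 and 35.1.

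Among the elongases of saturated and monounsaturated chains, Elovl1 and Elovl6 were detected on 7 of 7 arrays and did not pass the test. Elovl1, which makes very long chains for sphingolipids, had a log2 signal of 11.30, 11.74 and 12.07 in WT livers. In SHIVA livers Elovl1 had 11.71, 12.12, 11.78 and 11.99. The SHIVA values fell within the WT range but for SHIVA replicate 2, which was the highest of all. The log2 fold change of Elovl1 was 0.20 (SE 0.21, limma adjusted p = 0.743), with a 95% interval from -0.28 to 0.67, that is from 0.826-fold to 1.59-fold. Its other probe, at chr4:118104741-118104800 (mm9), gave 0.06 (limma adjusted p = 0.934 with every probe fitted by itself, a fit in which 0.232% of 26258 probes were called). Neither probe of this gene was called, and the values of both overlapped between genotypes.

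Elovl6, which turns palmitate into stearate, had a log2 signal of 8.52, 8.68 and 9.03 in WT livers. In SHIVA livers Elovl6 had 8.31, 8.32, 8.87 and 8.51. The genotypes overlapped, with WT replicate 3 the highest and SHIVA replicate 3 the next. The log2 fold change of Elovl6 was -0.24 (SE 0.20, limma adjusted p = 0.660), with a 95% interval from 0.621-fold to 1.16-fold. Elovl6 was highest in the WT liver in which Elovl3 was lowest.

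Elovl7, the remaining elongase of this substrate class, was at the edge of detection and was not tested. It was detected on 1 array, that of WT replicate 1. Its log2 signal was 3.68, 2.83 and 3.19 in WT livers, and 1.26, 1.22, 3.53 and 2.83 in SHIVA livers. The spread within SHIVA spanned nearly the whole range of the probe, and with so few arrays above background no fold is given. The software's milder criterion, positive and significant, was met on all 3 WT arrays and on those of SHIVA replicates 3 and 4.

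The elongases of polyunsaturated chains were bright in all livers. Elovl2, which takes part in the synthesis of docosahexaenoic acid, had a log2 signal of 11.04, 11.56 and 11.06 in WT livers. In SHIVA livers Elovl2 had 11.61, 11.67, 11.81 and 11.50. SHIVA values were the higher ones, with WT replicate 2 inside their range, so the genotypes overlapped. The log2 fold change of Elovl2 was 0.42 (SE 0.17), its 95% interval ran from 1.02-fold to 1.77-fold, and it did not pass the test over all genes (limma adjusted p = 0.347). Before adjustment, 13.3% of all genes tested were under 0.05, so that an unadjusted limma p-value of 0.0397, as for Elovl2, was common on these arrays.

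Elovl5, which elongates the products of the first desaturation of essential fatty acids, had a log2 signal of 12.20, 12.93 and 12.46 in WT livers. In SHIVA livers Elovl5 had 12.73, 12.29, 13.15 and 12.19. The genotypes overlapped over most of their range, and both the highest and the lowest value were SHIVA. The log2 fold change of Elovl5 was 0.06 (SE 0.27, limma adjusted p = 0.952), with a 95% interval from 0.680-fold to 1.60-fold. Of the 4 paralogs tested, Elovl5 had the widest interval.

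Elovl4 was not well above background on any array with either of its probes, at chr9:83672645-83672704 and chr9:83673253-83673312 (mm9, minus strand), and was not tested. The first of these gave a log2 signal between 1.21 and 1.28 in all livers. The second lay between 2.20 and 2.77 in WT and between 1.67 and 3.32 in SHIVA, and met the milder criterion on 7 of 7 arrays. The probes of Elovl4 thus differed in whether any signal was seen, and neither separated the genotypes.

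**Figure D2:**
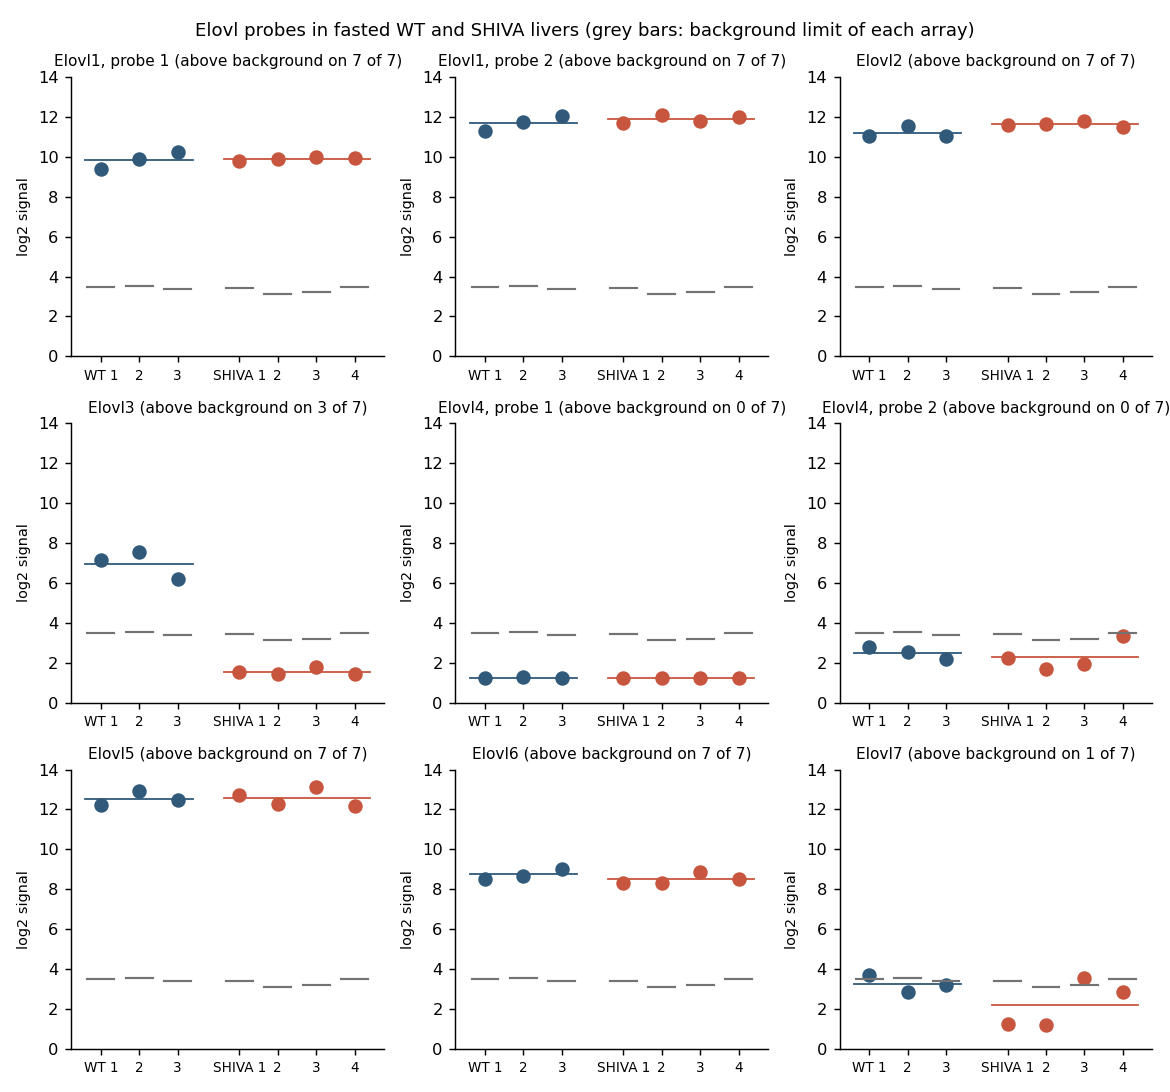
Normalized log2 signal of the 9 Elovl probes in each WT (blue) and SHIVA (red) liver. Coloured lines are group means and grey bars the background limit of each array. Only for Elovl3 do the SHIVA livers (1.43 to 1.77) lie under the limit while the WT livers (6.21 to 7.54) lie above it. Heights are not comparable between panels, since probes differ in brightness.

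In all, 5 of the 7 Elovl genes passed the filter on dim probes and 1 of the 5, Elovl3, was called, against 0.375% of all genes tested (75 of 20002, with 0.19% called lower). Elovl3 passed that filter only through its WT livers. The count over all genes ranged from 5 without WT replicate 1 to 398 without WT replicate 3, and Elovl3 was called with any 1 of the 7 mice left out. Of the 5, 3 had a log2 fold change above 0 and 2 below 0, and 1 had no overlap between genotypes, downwards, against 12.1% of all genes (5.99% downwards and 6.12% upwards). The intervals of Elovl1, Elovl2, Elovl5 and Elovl6 leave out a halving and a doubling of the transcript, and they leave room for smaller changes in either direction except for Elovl2, whose interval lay above no change. The number of arrays limits this precision.

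**Figure D3:**
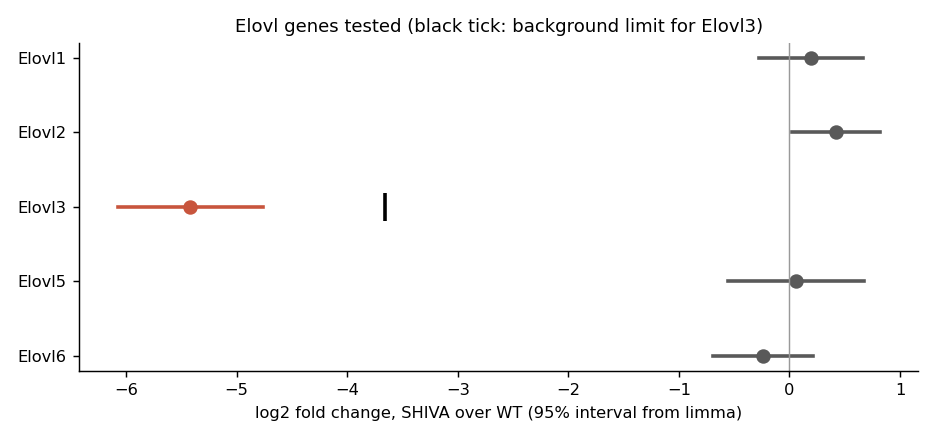
Log2 fold change, SHIVA over WT, of the 5 Elovl genes tested, with the 95% interval from limma (red for adjusted p under 0.05). The black tick marks the background limit for Elovl3, a log2 change of 3.66 downwards, beyond which its fall was not measured. The 4 paralogs lie between -0.24 and 0.42.

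Whether Elovl3 differed from its paralogs was tested within arrays, on the difference of log2 signals between Elovl3 and each paralog in the same liver. This difference changes with the genotype only if the genes do not change alike. Since Elovl3 was undetected in SHIVA livers, its values there were set to the background limit, which makes each change smaller than with the signal as measured. Each is a difference of group means at that limit and not a guaranteed minimum. Relative to Elovl1, Elovl3 was lower in SHIVA than in WT by a log2 change of -3.86. The corresponding changes were -4.08 relative to Elovl2, -3.72 relative to Elovl5 and -3.42 relative to Elovl6. In each case the lowest WT liver lay above the highest SHIVA liver, and for Elovl6, where they were closest, these were -2.82 and -4.89. The 2-sided exact permutation test gave p = 0.0286 for each of the 4 comparisons and after adjustment over them. This is the smallest p that 35 splits of 7 mice allow, it follows from the lack of overlap already seen for Elovl3, and it adds no independent evidence. The 4 comparisons share the Elovl3 values and are not independent.

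Detection in every WT liver and in no SHIVA liver was rare. It was found for 15 of the 22339 genes detected on any array (0.0671%), and the reverse for 49 (0.219%). Ranked by the lower bound of the fold, Elovl3 was the first of the 15 with a bound of 12.6-fold. Extl1, a glycosyltransferase of the exostosin family, followed with a bound of 4.93-fold lower signal in SHIVA (limma adjusted p = 0.00921). Esrrg, an orphan nuclear receptor, had a bound of 2.85-fold (adjusted p = 0.0593), and the transcripts ENSMUST00000036477 and ENSMUST00000111353 had 2.73-fold and 2.56-fold, with adjusted p = 0.138 and 0.133. Of the 15 genes, 3 were called, namely Elovl3, Extl1 and the olfactory receptor gene Olfr125. All 15 passed the filter on dim probes only through the WT livers, which favours a difference, so these calls are no independent support. The call of Extl1 was lost without WT replicate 1 (adjusted p = 0.0873), and that of Olfr125 was lost with any mouse but WT replicate 3 left out (adjusted p from 0.053 to 0.167). With undetected values at the background limit Olfr125 was not called (adjusted p = 0.117).

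The genes whose log2 signal followed that of Elovl3 most closely over the 7 arrays were Adtrp (Pearson r = 0.991), the sialyltransferase St3gal6 (0.989), Extl1 (0.988), Olfr125 (0.986) and the apolipoprotein Apoe (0.983). The points of these correlations are the same 7 livers in 2 genotypes, so r mostly reads the gap between the genotypes, whatever its size. Apoe had a log2 fold change of -0.05. For Extl1 and Olfr125, detected in no SHIVA liver, there is no measured fold, only the bounds of 4.93-fold and 1.64-fold. St3gal6 was called at -1.32 (adjusted p = 0.0160), a call lost without WT replicate 1, WT replicate 2, SHIVA replicate 1 or SHIVA replicate 3 (adjusted p up to 0.104), while Adtrp, at -0.48, did not pass (adjusted p = 0.186).

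The enzymes that complete the elongation cycle did not pass the test. Of 7 genes, 6 were tested, 0 were called, 5 were lower and 1 higher, and the median log2 fold change was -0.24, beside -0.0074 over all genes. The largest values were -0.34 for the ketoacyl reductase Hsd17b12 (adjusted p = 0.631), 0.33 for Hacd4 (0.601) and -0.30 for Hacd1 (0.616). Tecrl, a relative of Tecr, was not detected on any array.

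Desaturases, which insert double bonds before or after elongation, had 8 of 10 genes tested and 0 called, with a median of 0.16. Scd2, a stearoyl-CoA desaturase, stood at 0.35 (adjusted p = 0.50). Degs1, which desaturates dihydroceramide, stood at 0.31 (0.364) and Fads6 at 0.29 (0.505). Acyl-CoA synthetases, which activate fatty acids before elongation, had 10 of 13 tested and 0 called, with a median of 0.04. Slc27a3, detected in 1 of 3 WT livers and 4 of 4 SHIVA livers, had 0.92 (adjusted p = 0.258, and 0.0354 at a value of 1.31 without WT replicate 3), Acsl1 had -0.48 (0.453) and Slc27a1 had -0.36 (0.496). Slc27a3 passed in only that 1 of 19 alternatives, and ranged from 0.66 to 1.31 with a mouse left out.

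Of 11 genes that supply malonyl-CoA and fatty acids to the elongases, all were tested and 1 was called. Me1, the cytosolic malic enzyme, which provides NADPH for fatty acid synthesis, fell. Its log2 signal was 11.39, 11.69 and 11.49 in WT livers, and 10.48, 10.14, 10.55 and 10.64 in SHIVA livers, without overlap. The log2 fold change of Me1 was -1.07 (SE 0.17, limma adjusted p = 0.0455). With a mouse left out the call held only without WT replicate 3, and the adjusted p was between 0.063 and 0.210 without any of the others. The other 10 included Acly, ATP citrate lyase, at 0.90 (adjusted p = 0.206) and Fasn, fatty acid synthase, at -0.66 (0.352), both named after their values were seen, and the median of the list was -0.25. Acaca, which makes the malonyl-CoA used in the condensing step and was also named afterwards, had a log2 fold change of -0.0026 (adjusted p = 0.996).

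Enzymes and proteins that use elongated chains, among them ceramide synthases and the makers of triglycerides and wax esters, had 10 of 17 genes tested and 0 called, with a median of -0.16. Cidec, a lipid droplet protein, was detected in 2 of 3 WT livers and 1 of 4 SHIVA livers, and its fitted log2 fold change of -2.80 (adjusted p = 0.277) was -2.42 (0.259) with undetected values at the background limit. Its WT livers were far apart, with a log2 signal of 6.78, 7.90 and 3.53, and WT replicate 3 lay among the SHIVA livers, which had 3.42, 4.50, 1.74 and 3.44. Without that liver Cidec was called, at -4.07 (limma adjusted p = 0.0412), the only 1 of 18 alternatives that passed. With another mouse left out it was as small as -1.88. Agpat2, which makes phosphatidic acid, had -0.58 (0.145), and Soat2, which esterifies cholesterol, 0.41 (0.446).

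Of 24 genes known or thought to control elongase genes, 23 were tested and 1 was called. This was Nr1d1, the circadian repressor REV-ERBα, with a log2 signal of 10.65, 10.24 and 10.57 in WT livers. In SHIVA livers Nr1d1 had 9.58, 8.98, 9.11 and 9.25, without overlap. The log2 fold change of Nr1d1 was -1.26 (SE 0.19, limma adjusted p = 0.0419). This call too held only without WT replicate 3, and leaving out any of the other mice gave an adjusted p between 0.0678 and 0.212. Ppara, the nuclear receptor of the fasting response, did not pass the test at -0.67 (0.132), although its WT livers (12.19 to 12.61) and SHIVA livers (11.64 to 11.78) did not overlap. Srebf1, a regulator of lipid synthesis, had 0.52 (0.623), Mlxipl, the carbohydrate response factor, 0.05 (0.942), and Nr1h3, the oxysterol receptor LXRα, -0.11 (0.774). Of the 23, 3 had no overlap between genotypes, all downwards, beside 5.99% of all genes. These were Nr1d1, Ppara and Nr1i3, the last at -0.97 (limma adjusted p = 0.0544) and named after its value was seen. The median of the list was -0.11.

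PPARα is known to drive fatty acid oxidation in the fasted liver. Of 23 PPARα targets of fatty acid oxidation, 0 were called by limma. All 23 had a log2 fold change below 0, beside 51.2% of all genes, 11 of the 23 had no overlap downwards, beside 5.99%, and the median was -0.93. The list was chosen with these values known. The largest were Acot1 at -2.69 (adjusted p = 0.204), Cyp4a14 at -2.27 (0.164) and Fgf21 at -2.11 (0.250). Without WT replicate 3, 10 of the 23 were called lower and the median was -1.27, with Acot1 at -3.73 (adjusted p = 0.0169) and Fgf21 at -3.09 (0.0172), while 0 were called with any other mouse left out. The mean log2 signal over the list was between 11.88 and 13.10 in WT and between 11.48 and 11.64 in SHIVA livers. WT replicate 3, the WT liver with the least Elovl3, was at 9.66 for Acot1 (log2), where WT replicates 1 and 2 were at 12.50 and 13.09, and it was within the SHIVA range of 8.48 to 9.71. For Elovl3 the same liver, at 6.21, lay outside the SHIVA range of 1.43 to 1.77. It also lay outside that range for the 11 targets without overlap. Of the other targets named, it lay above the SHIVA livers for Cyp4a14 (15.03 against 12.79 to 14.67). For Fgf21 it lay among them (4.58 against 3.77 to 5.14).

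Of 18 clock and clock output genes, 14 were tested, with 1 called lower, Nr1d1, and 1 called higher. Noct, which encodes nocturnin, rose from 6.13, 5.90 and 6.36 in WT livers to 9.67, 8.67, 10.08 and 8.00 in SHIVA livers. This is 2.98 on the log2 scale (SE 0.45, limma adjusted p = 0.0434). The call of Noct held without WT replicate 3 or SHIVA replicate 4, and was lost without any of the other 5 mice (adjusted p from 0.063 to 0.215). The median of the clock list was 0.02. The hour at which the mice were killed is not given in the sources used here, and the part of the clock in the Elovl3 difference was not tested.

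Of 12 genes taken as male-biased in mouse liver from general knowledge, 8 were tested and 1 was called lower, with a median of -0.48. Of the 8, 6 had a log2 fold change below 0 and 2 above. The genotypes did not overlap for 4 of the 8, all downwards, beside 5.99% of all genes. These were Mup20, Cyp2d9, Cyp7b1 and Nudt7, of which all but Mup20 were named after their values were seen. Mup20, a major urinary protein, had a log2 fold change of -1.28 (SE 0.19, limma adjusted p = 0.0365), a call that held without WT replicate 3 or SHIVA replicate 2 and was lost without any of the other 5 mice (adjusted p from 0.0665 to 0.186). Of 14 genes taken as female-biased, 13 were tested and 0 were called, with a median of 0.18. Of the 13, 6 were below 0 and 7 above. The largest were A1bg at 2.79 (limma adjusted p = 0.132), Hao2 at 2.33 (0.150, detected in 2 of 3 WT livers) and Prom1 at 2.22 (0.0732). Without overlap were 4 upwards and 1 downwards, beside 6.12% and 5.99% of all genes. The 1 downwards was Sult3a1, at -1.55 (0.111), named after its value was seen. Without WT replicate 3 Prom1 was called, at 2.69 (limma adjusted p = 0.019). It was not called with any other mouse left out, at 1.92 or above. The methods state that all experiments used female mice.

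**Figure D4:**
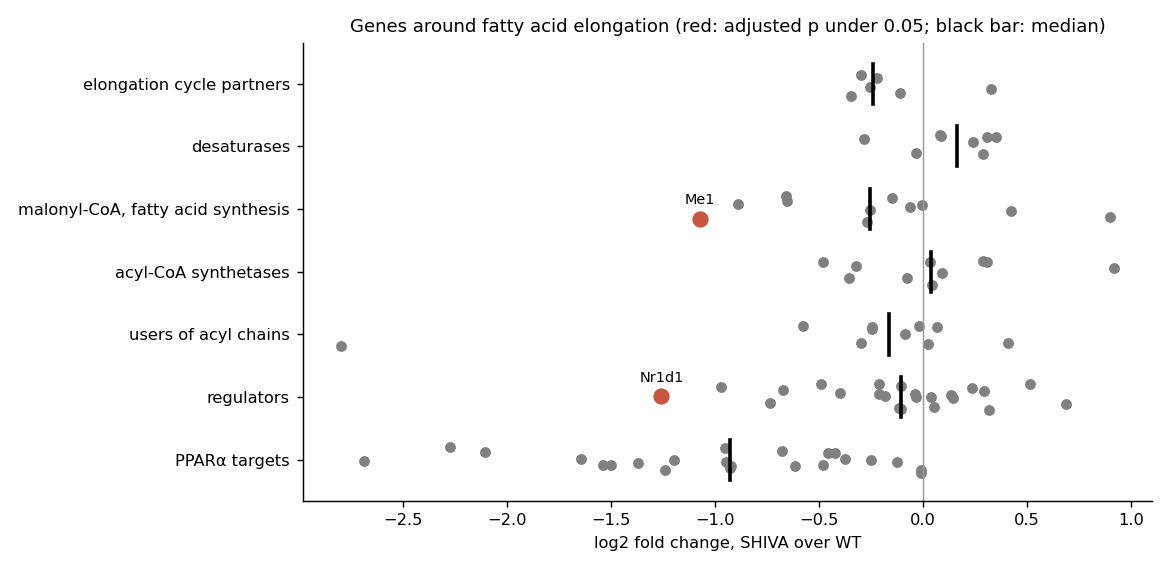
Log2 fold change, SHIVA over WT, of the genes tested in 7 lists around fatty acid elongation. Each point is a gene, red points have a limma adjusted p under 0.05 (Me1 and Nr1d1), and black bars are list medians, which range from -0.93 for PPARα targets to 0.16 for desaturases. Vertical scatter within a list has no meaning.

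Markers of the cells and tissues that a liver sample could hold were read beside Elovl3. The 7 hepatocyte markers tested had a mean log2 signal of 17.03 to 17.20 in WT and 17.04 to 17.17 in SHIVA livers. Of 8 adipose markers, 1 was tested, Car3, at a mean log2 signal of 14.37 in WT and 14.29 in SHIVA livers. Retn, Cfd, Lep, Plin1 and Ucp1, 5 of the 8, were not detected on any array. Adipoq was detected only in SHIVA replicate 1 (log2 signal 5.01) and Cidea only in WT replicate 3 (3.91). Averaged over the list, Car3 included, log2 signal was 3.45 to 3.95 in WT and 3.59 to 3.87 in SHIVA livers. Of 7 skin and sebaceous gland markers 6 were tested, all with a log2 fold change below 0 and overlapping between genotypes, and over all 7 the average log2 signal was 4.62 to 4.73 in WT and 4.21 to 4.55 in SHIVA. Of 6 markers of Kupffer cells and macrophages, all were tested and above 0 (median 0.57), again with overlap, at a mean log2 signal of 10.84 to 12.15 in WT and 11.55 to 12.57 in SHIVA. Red blood cell markers were above 0 in 4 of 4 genes tested (median 0.53), with an average log2 signal of 8.90 to 9.17 in WT and 9.26 to 9.77 in SHIVA, and Hbb-bt (0.64) and Alas2 (0.63) did not overlap between genotypes. Also without overlap were the hepatocyte markers Ttr (-0.32) and Cyp2e1 (-0.36), the stellate cell marker Rgs5 (0.67) and the pancreas marker Cela2a (0.92), all 6 named after their values were seen and with limma adjusted p between 0.145 and 0.365. Over all genes tested, 12.1% had no overlap between genotypes, so single markers without overlap were common on these arrays. Biliary epithelium markers were below 0 in 4 of 5 genes tested (median -0.55), all with overlap. Averaged over the 6 biliary markers, log2 signal was 4.86 to 6.33 in WT and 4.50 to 5.52 in SHIVA livers. None of the marker lists, which also covered endothelium, stellate cells and exocrine pancreas, held a gene called by limma. The part of cell composition in the Elovl3 difference was not tested.

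The fall of Elovl3 was seen with every processing that gave it a value. Over 19 alternatives its log2 fold change ranged from -5.80 to -1.48, and 18 of them passed the test. The smallest values came from signals that keep the background or add an offset to it: -2.17 with the mean spot signal, -2.17 with the authors' table and -1.48 with normexp correction (limma adjusted p = 0.0146). With undetected values at the background limit it was -3.66 (0.00217). In that setting every SHIVA value is the limit of its array, so the spread among SHIVA livers is not that of the transcript. With any 1 liver left out the log2 fold change of Elovl3 was between -5.80 and -5.13. The methods name no test for the arrays, and their general statistics name an unpaired test, here called the methods' t-test. With it in place of limma the adjusted p was 0.101 and 0 of 20002 genes passed, while 2301 genes, Elovl3 and Elovl2 among them, were under 0.05 before adjustment.

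**Figure D5:**
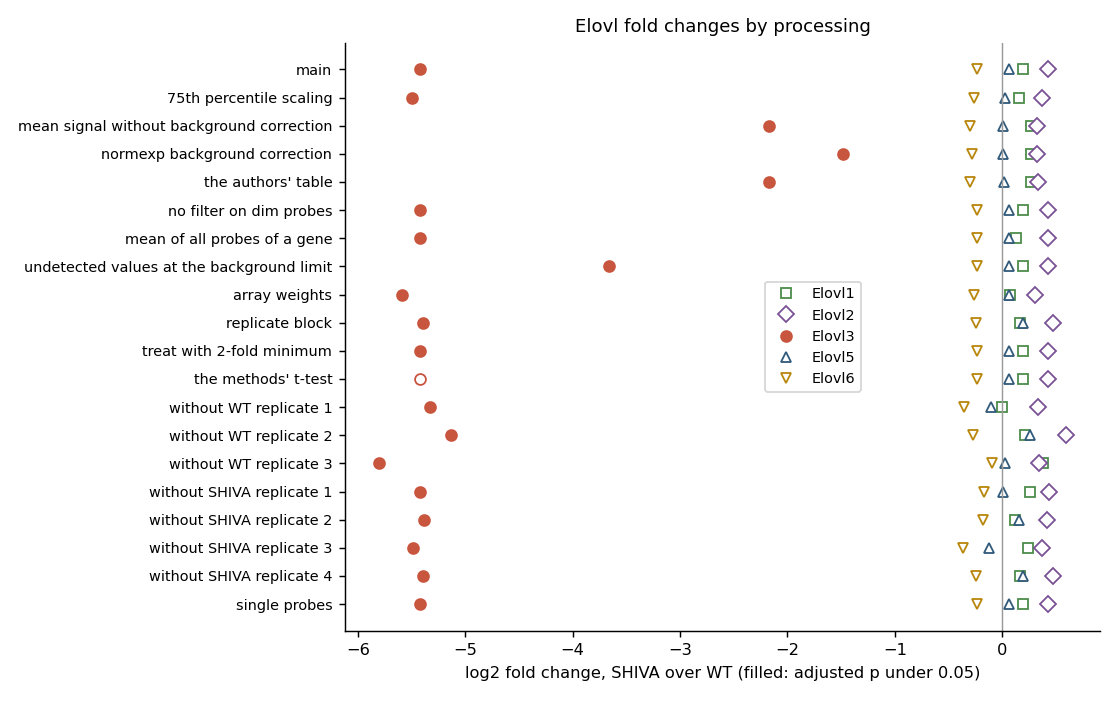
Log2 fold change, SHIVA over WT, of Elovl1, Elovl2, Elovl3, Elovl5 and Elovl6 under the main processing and each alternative. Filled symbols have an adjusted p under 0.05. Elovl3 lies between -5.80 and -1.48 and is filled in all but the methods' t-test, whereas no paralog is filled in any setting.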

How the data were processed

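Livers of 3 WT and 4 SHIVA mice were measured with 1 single-colour Agilent array each. The authors deposited the scanner output, with spot intensity values from Feature Extraction 10.5.1.1, and their own quantile normalized log2 values, whose ranks are those of the mean spot signal on every array (smallest rank correlation 1). Probe positions are those of mm9 in the files. Spots flagged as uneven or deviant (120 to 163 per array) were left out. The processed intensities were quantile normalized, put on the log2 scale and averaged per probe in R 4.3.3. Names were updated by accession with GRCm38.p6, which named 26413 of 55681 probes. The probe of highest mean signal was taken for each gene. Genes detected on at least 3 arrays were tested with limma 3.58.1 (lmFit and eBayes), adjusted by Benjamini-Hochberg over 20002 genes and called under 0.05. Fold changes are SHIVA over WT. A gene undetected in a genotype was bounded by the mean, over its arrays, of the higher of the background limit and its own signal.

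Named were all Elovl genes, the called genes of each list or otherwise the 3 with the largest change, 6 regulators, the 5 genes with the largest bound among those detected like Elovl3 and the 5 with the highest correlation with it. The members and lists were chosen with earlier results of these data known. The steps were tested on simulated data. Alternatives were other scalings, background corrections, filters, probe rules and tests, the replicate number as a block, and leaving out each mouse. No batch term was possible on a single slide scanned as a whole.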

Additional observations from a re-analysis of the deposited data

How the results depend on the processing

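Over 19 alternatives Elovl3 kept its direction and passed the test in all but the methods' t-test (log2 fold change -5.42, adjusted p = 0.101, 0 Elovl genes called). A filter asking for detection on all arrays removed Elovl3, so that 0 Elovl genes were called there too. Elovl2 and Elovl6 kept their direction under all 20 alternatives and were not called under any. With 1 mouse left out, Elovl1 ranged from -0.00632 (without WT replicate 1, a reversal) to 0.379. Elovl5 ranged from -0.126 to 0.257, and reversed without SHIVA replicate 3 (-0.126) and WT replicate 1 (-0.105). Mlxipl ranged from -0.0819 to 0.252 and turned to -0.0152 without WT replicate 1, to -0.0819 without WT replicate 2 and to -0.00759 without SHIVA replicate 3. The change of Elovl3 minus a paralog, as fitted without the background limit and with 1 mouse left out, ranged from -6.17 to -5.32 for Elovl1, -6.14 to -5.66 for Elovl2, -5.82 to -5.23 for Elovl5 and -5.70 to -4.86 for Elovl6, with an exact permutation p of 0.0667 or 0.1, the smallest such designs allow.

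The count of genes called, 75, moved more. It was 142 with the mean signal without background correction and with the authors' table, 13 without a filter on dim probes, 393 with array weights, 4 with a minimum change of 2-fold and 0 with the methods' t-test. With 1 mouse left out it ranged from 5 (without WT replicate 1) to 398 (without WT replicate 3), and was 11 without WT replicate 2, 7 without SHIVA replicate 1 and 13 without SHIVA replicate 3. Of the called genes 49.3% were higher in SHIVA, and 38.0% with normexp. Between mice of the same replicate number, deviations from the group mean correlated at -0.0491, 0.0125 and 0.236. WT replicates 1 and 2 matched SHIVA replicates 2 and 4 best, and WT replicate 3 matched SHIVA replicate 3 best. With so few mice these values cannot settle whether the numbers pair them. With the replicate block, in which SHIVA replicate 4 has no partner and adds nothing, 32 genes were called and Elovl3 had -5.39 (adjusted p = 0.0232). Calls near the threshold depended on the setting: Me1 passed in 9 of 20 alternatives, Nr1d1 in 9, Noct in 10 and Mup20 in 10. Leaving out each mouse was applied to the lists after the data were seen. The causes were not tested. Elovl4, Elovl7 and Elovl3 in SHIVA were limited by signal over background.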
